A study of Mus musculus with 16 samples.

Results

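The genes described here are 10 genes that brain astrocytes are known to raise when they become reactive: Gfap, Vim, Serpina3n, Cd44, Osmr, Lcn2, S1pr3, Timp1, Steap4 and Ggta1. They were chosen with earlier results of these data known and were found by gene symbol in a table of raw read counts. All 10 were among its 54532 entries, and 9 of them were among the 17736 genes abundant enough to test. Lcn2 was too scarce for that test. Their levels were read in 16 bulk RNA-seq libraries of mouse brain tissue, 4 in each of 4 groups, all from female mice of 9 months. The groups cross the Ch25h genotype, +/+ or -/-, with a tau transgene, present (Tau+) or absent (Tau-). Ch25h encodes cholesterol 25-hydroxylase, an interferon-inducible enzyme that makes 25-hydroxycholesterol, and -/- marks mice that lack the gene. The labels say only Tau+ and Tau-, and the transgene's promoter, its mutation and how the Ch25h allele was made are not given in the sources used here. The labels call the tissue frontal cortex and the series' own text calls it hippocampus. Summed levels of 6 cortex markers were 629 to 851 CPM (a gene's count scaled to a common library size) and those of 6 hippocampus markers 170 to 312 CPM, so markers of both regions were present in all 16 libraries. Nothing in the labels ties a library to a separate animal beyond its own name, so p-values below measure the spread between these samples.

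Astrocytes answer injury, infection and protein aggregates by changing shape and gene expression, a state called reactive astrogliosis. It includes more intermediate filament protein, the secretion of protease inhibitors and acute-phase proteins, and new receptors for cytokines, matrix and lipids. Signals known to drive it include cytokines of the interleukin-6 family, which act through the gp130 receptor and the transcription factor STAT3, and interleukin-1, tumour necrosis factor and complement C1q released by microglia. In bulk tissue a larger number of cells of 1 type and more RNA per cell cannot be told apart.

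The stretches before the transcription start of 3 of these genes are shown because 2 of them, Gfap and Serpina3n, had the largest changes with tau in Ch25h+/+ among those of the 10 that passed, and the third, Steap4, carries 3 of the motif matches described below. They come from RefSeq (GRCm38.p6), where all 10 genes were matched, and are written 5′ to 3′ on the strand of the gene. Capitals mark a STAT-type match or a match to the NF-kappaB consensus. The sequence of Steap4 ends 15 bases before the RefSeq start, where an annotated untranslated region begins.
Gfap (chr11:102897201-102897450, minus strand): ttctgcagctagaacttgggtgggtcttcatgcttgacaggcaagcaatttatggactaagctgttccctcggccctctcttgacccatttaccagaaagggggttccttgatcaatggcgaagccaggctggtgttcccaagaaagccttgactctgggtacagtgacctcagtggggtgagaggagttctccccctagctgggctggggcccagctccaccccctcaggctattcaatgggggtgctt
Serpina3n (chr12:104406458-104406707, plus strand): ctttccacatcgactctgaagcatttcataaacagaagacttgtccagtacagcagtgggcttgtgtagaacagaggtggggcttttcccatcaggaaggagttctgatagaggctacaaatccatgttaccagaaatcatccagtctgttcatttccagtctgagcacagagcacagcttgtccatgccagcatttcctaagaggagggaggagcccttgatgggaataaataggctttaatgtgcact
Steap4 (chr5:7960222-7960456, plus strand): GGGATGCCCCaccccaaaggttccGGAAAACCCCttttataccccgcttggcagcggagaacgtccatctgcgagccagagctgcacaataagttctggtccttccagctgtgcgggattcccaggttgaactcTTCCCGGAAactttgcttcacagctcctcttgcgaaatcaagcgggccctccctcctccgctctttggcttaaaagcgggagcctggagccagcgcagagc
A set of 4 motifs was searched on both strands in windows from 250 bases before to 50 bases after each start. The STAT-type letters TTCNNNGAA were in 8.3% of 32851 windows and in those of 2 of the 10 genes. Steap4 carries TTCCCGGAA from 116 to 108 bases before its start. Gfap carries TTCCAGGAA across its start, from position -2 to position 7, so that only its first bases lie in the stretch above. The NF-kappaB consensus was in 4.51% of windows and in those of Vim and Steap4. The Steap4 matches GGGATGCCCC and GGAAAACCCC lie from 250 to 241 and from 226 to 217 bases before the start. The AP-1-type letters TGANTCA were in 7.81% of windows and in that of Osmr. The interferon-type motif, GAAA and GAAA with any 2 bases between them, was in 3.44% of windows and in none of the 10. The matches do not overlap each other in the windows of the 10 genes, and a match is a description of letters and not of binding.

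Libraries held 15530352 to 25602500 counts. All 8 Ch25h-/- libraries had 0 counts of Ch25h, against 0.216 to 1.26 CPM where the gene was intact. A count of 0 allows up to 3 counts, which is 0.117 to 0.193 CPM over the 16 libraries and covers counting error only. Prnp, the prion protein gene, whose promoter is used in several mouse transgenes, was at 708 to 839 CPM in Tau- and at 1414 to 1935 CPM in Tau+ libraries. Libraries differed in a ribosomal RNA entry, CT010467.1: on total counts it stood at 2289 to 5684 CPM in 7 libraries, all of them Ch25h-/-, and at 111 to 475 CPM elsewhere. That library class therefore nearly coincides with Ch25h loss, and Ch25h-/- Tau+ replicate 1 is the exception. Replicate numbers are names given by record order and pair no libraries.

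In mice with Ch25h, the tau transgene went with higher levels of 5 of the 9 genes tested, and in mice without Ch25h 0 of 9 passed the test. The difference between these tau effects passed for 0 of 9 in edgeR. Gfap was 5.51-fold, Serpina3n 4.82-fold, Vim 2.62-fold, Osmr 2.18-fold and Ggta1 1.91-fold higher in Ch25h+/+ Tau+ than in Ch25h+/+ Tau-. These 5 of the 9 genes tested rose at an adjusted p under 0.05, while 1.47% of all genes tested did so and 1.56% changed in either direction. The count of 5 was 3 in a fit of the 8 libraries alone and ran from 3 to 6 with 1 library left out. Gfap and Serpina3n passed in each of these settings. In Tau+ mice, loss of Ch25h went with lower Gfap, Serpina3n and Vim. These 3 of 9 fell, while 2.4% of all genes tested fell and 3.55% changed in either direction. That last share ran from 0.602% without replicate 4 of Ch25h+/+ Tau+ to 9.42% without replicate 1 of Ch25h-/- Tau+. With the ribosomal RNA class of the library as a term, this contrast rests on 1 Ch25h-/- library, replicate 1 of Ch25h-/- Tau+. The 3 fold changes were then about as large, but 1 library cannot show whether the fall is apart from library class. In Ch25h-/- mice 0 of 9 passed with tau, against 0.0395% of all genes, so a count of 0 says little there. The estimate was higher with tau in 8 of the 9 and in 9360 of the 17736 genes tested, with medians of 0.19 and 0.008 (log2). In Tau- mice 0 of 9 passed with loss of Ch25h, against 1.03% of all genes. That share ran from 0.0167% without replicate 1 of Ch25h+/+ Tau- to 7.25% without replicate 1 of Ch25h+/+ Tau+. DESeq2 and limma-voom also called 0 of 9 in both, and at an unadjusted p under 0.05 there was 1 gene in the first, against 3.68% of all genes, and 0 in the second, against 20.9%. Counting Lcn2, 6 of the 10 genes were higher in every Ch25h+/+ Tau+ library than in every Ch25h+/+ Tau- library, as were 3.89% of all genes tested. With Ch25h loss in Tau+ mice 5 of the 10 were lower without overlap, against 5.74% of all genes. The test was edgeR's quasi-likelihood test with Benjamini-Hochberg adjustment over all 17736 genes, and levels are CPM on library sizes scaled by the trimmed mean of M-values (TMM). The comparisons share groups, so their values for a gene are set side by side and not counted as separate support. A scarce gene can pass the abundance filter through the group where it is high, so these counts describe the genes that passed and not all 10. The 10 genes were chosen with earlier results of these data known. A share above that of all genes is therefore a description and no separate support.

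**Figure D1:**
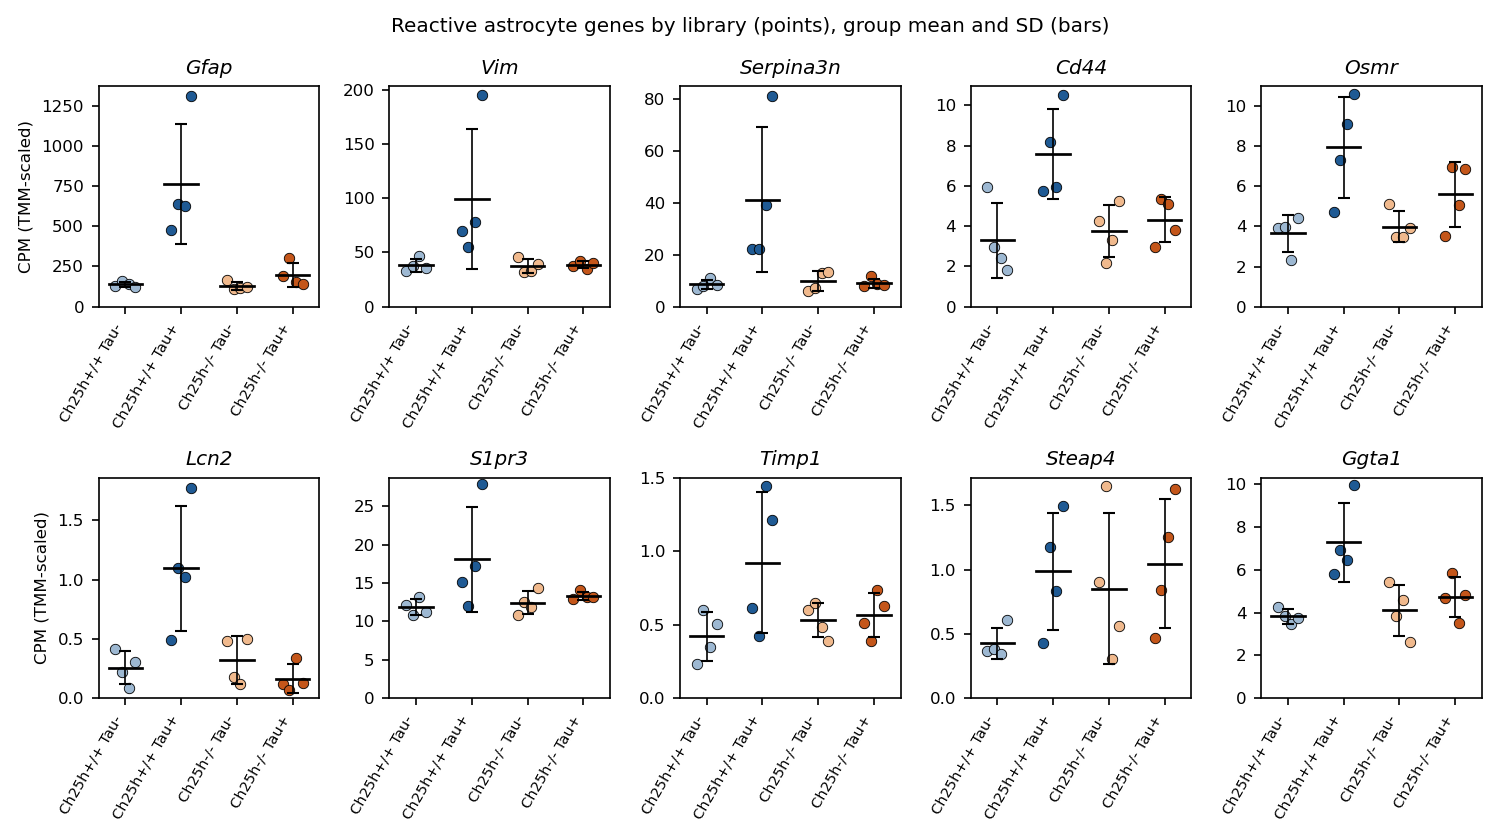
Level of each of the 10 reactive astrocyte genes in TMM-scaled CPM (vertical axes, from 0) in the 4 libraries of each genotype group (points), with the group mean and SD (bars, n = 4). The Ch25h+/+ Tau+ points of Gfap, from 473 to 1312 CPM, lie above all other groups, as do those of Serpina3n and Vim.

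Gfap and Vim encode the intermediate filament proteins of reactive astrocytes. Gfap (glial fibrillary acidic protein, GRCm38 chr11:102887336-102900912, minus strand) is the most used marker of astrocytes. It was at 131, 161, 140 and 122 CPM in the 4 Ch25h+/+ Tau- libraries. In Ch25h+/+ Tau+ it was at 473, 637, 627 and 1312 CPM. In Ch25h-/- Tau- it was at 163, 108, 113 and 122 CPM, and in Ch25h-/- Tau+ at 189, 302, 156 and 139 CPM. All 4 Ch25h+/+ Tau+ libraries lay above the other 12, and the other groups overlapped each other. Means were 139 ± 17.0, 762 ± 374, 127 ± 24.8 and 197 ± 73.5 CPM (SD, n = 4 each) in that order. Gfap rose with tau in Ch25h+/+ (log2 fold change 2.46 ± 0.27 SE, edgeR adjusted p = 6.13e-05). In Ch25h-/- the difference was 0.63 ± 0.26, with an unadjusted p of 0.0268 and an adjusted p of 1 in edgeR's test. It was the 1 gene under an unadjusted 0.05 in that comparison, and its difference was 0.34 without replicate 2 of Ch25h-/- Tau+. Gfap fell with loss of Ch25h in Tau+ mice (log2 fold change -1.96 ± 0.27, edgeR adjusted p = 0.000767). With library class as a term the value was -2.01. That contrast rests on replicate 1 of Ch25h-/- Tau+ alone, so it cannot show whether the fall is apart from library class. In Tau- mice the difference was -0.13 ± 0.26.

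Vim encodes vimentin, a filament protein that astrocytes share with endothelial, mural and fibroblast cells (chr2:13573927-13582826, plus strand). It was at 32.7, 37.1, 46.9 and 35.1 CPM in Ch25h+/+ Tau- and at 69.97, 54.7, 77.9 and 195 CPM in Ch25h+/+ Tau+. It was at 46.1, 32.0, 32.5 and 39.0 CPM in Ch25h-/- Tau- and at 37.1, 41.9, 34.6 and 40.6 CPM in Ch25h-/- Tau+. The Ch25h+/+ Tau+ libraries again lay above the other 12, and 1 of them was far above the rest of its group. The rise with tau in Ch25h+/+ was 1.39 ± 0.28 (log2, adjusted p = 0.0102 in edgeR's test), and 0.83 without replicate 4 of Ch25h+/+ Tau+. It was not called without replicate 1 of Ch25h+/+ Tau- (adjusted p = 0.0504) or in a fit of the 8 libraries alone (0.0972). The fall with Ch25h loss in Tau+ was -1.37 ± 0.28 (adjusted p = 0.0145), -0.82 without that same replicate 4, and not called without replicate 3 of Ch25h-/- Tau+ (adjusted p = 0.0617) or in the 8 libraries alone (0.0889). In Ch25h-/- mice the tau difference was 0.04, with a 95% interval from -0.50 to 0.59. Of 9 other filament and partner genes, such as nestin and the neurofilaments, 0 passed with tau in Ch25h+/+ in edgeR, DESeq2 or limma-voom, 1 had an unadjusted p under 0.05 (9.38% of all genes did), and their median log2 fold change was -0.05.

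Serpina3n, Lcn2 and Timp1 encode secreted proteins. Serpina3n (chr12:104406729-104414329, plus strand) is a serine protease inhibitor of the antichymotrypsin family. Its levels in Ch25h+/+ Tau- were 6.98, 7.88, 11.05 and 8.26 CPM, and in Ch25h+/+ Tau+ 22.1, 22.3, 39.3 and 81.3 CPM. Its levels in Ch25h-/- Tau- were 6.08, 7.29, 12.8 and 13.2 CPM, and in Ch25h-/- Tau+ 7.94, 11.6, 8.52 and 8.18 CPM. The lowest Ch25h+/+ Tau+ library was above the highest of the other 12, whose values overlapped. The rise with tau in Ch25h+/+ was 2.27 ± 0.35 (log2, edgeR adjusted p = 0.00132) and the fall with Ch25h loss in Tau+ was -2.19 ± 0.35 (adjusted p = 0.00263). In Ch25h-/- mice the tau difference was -0.13, with a 95% interval from -0.83 to 0.57, which does not reach the change seen in Ch25h+/+. Serpina3n lies in a cluster of closely related genes, and the way shared reads were counted is not given in the sources used here. The 10 neighbours of the family in the table had at most 10 counts in any library, or 0.542 CPM, and 0 of them could be tested.

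Lcn2 encodes lipocalin-2, an iron-siderophore-binding protein of astrocytes, endothelium and neutrophils (chr2:32384633-32388252, minus strand). Libraries held 9, 4, 2 and 6 counts in Ch25h+/+ Tau- and 8, 26, 22 and 38 counts in Ch25h+/+ Tau+. They held 8, 3, 2 and 9 counts in Ch25h-/- Tau- and 3, 1, 6 and 2 counts in Ch25h-/- Tau+. In CPM the Ch25h+/+ Tau+ group, at 0.493 to 1.77, did not overlap the Ch25h+/+ Tau- group at 0.0863 to 0.416 or the Ch25h-/- Tau+ group at 0.0650 to 0.341. It overlapped Ch25h-/- Tau-, where the highest library had 0.502 CPM. An exact two-sided permutation test gave p = 0.0286 for the comparisons with Ch25h+/+ Tau- and with Ch25h-/- Tau+, the smallest value that 4 against 4 libraries can give, and 0.0571 after Benjamini-Hochberg adjustment over 4 comparisons. The differences of means were 0.840 CPM with tau in Ch25h+/+ and -0.934 CPM with Ch25h loss in Tau+. With tau in Ch25h-/- the difference was -0.158 CPM (exact permutation p = 0.2), and with Ch25h loss in Tau- it was 0.0644 CPM (exact permutation p = 0.657). Summed neutrophil markers were 0.554 to 2.59 CPM in Ch25h+/+ Tau- and 0.465 to 2.53 CPM in Ch25h+/+ Tau+, so the 2 groups overlapped in them.

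Timp1 encodes an inhibitor of matrix metalloproteinases (chrX:20870166-20874735, plus strand). It was scarce, at 0.231, 0.602, 0.345 and 0.504 CPM in Ch25h+/+ Tau- and 0.616, 0.421, 1.44 and 1.21 CPM in Ch25h+/+ Tau+. The groups overlapped, and the difference of 1.15 ± 0.41 (log2) had an adjusted p of 0.272 in edgeR's test. The Ch25h-/- libraries were at 0.390 to 0.739 CPM with and without tau. Timp1 lies within Syn1, a neuronal gene on the opposite strand at 682 to 864 CPM, with which it shares no exon bases. The use of strand in counting is not given, so reads from unspliced Syn1 RNA in this place could not be set apart. Of 8 other TIMP and metalloproteinase genes tested, 1 rose with tau in Ch25h+/+: Mmp2, a collagen-degrading enzyme (log2 fold change 0.88, edgeR adjusted p = 0.0229). The median of the 8 was 0.20.

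Osmr, Cd44 and S1pr3 encode receptors at the cell surface. Osmr (chr15:6813577-6874969, minus strand) binds oncostatin M together with gp130. It was at 3.93, 3.99, 2.33 and 4.43 CPM in Ch25h+/+ Tau- and at 4.74, 7.32, 9.11 and 10.6 CPM in Ch25h+/+ Tau+. In Ch25h-/- Tau- it was at 5.12, 3.47, 3.50 and 3.90 CPM and in Ch25h-/- Tau+ at 3.52, 6.95, 5.06 and 6.87 CPM. The Ch25h+/+ groups did not overlap, but the margin between them was narrow, and the Tau+ groups of the 2 Ch25h genotypes overlapped each other. The rise with tau in Ch25h+/+ was 1.12 ± 0.26 (log2, edgeR adjusted p = 0.0303). The call was lost without any 1 of 5 libraries, namely replicates 3 and 4 of Ch25h+/+ Tau+ and replicates 1, 2 and 3 of Ch25h+/+ Tau-, and in the 8 libraries alone (adjusted p = 0.080). In Ch25h-/- the tau difference was 0.47 ± 0.26, the largest there after that of Gfap. The fall with Ch25h loss in Tau+ was -0.52 ± 0.25 (adjusted p = 0.222).

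Of 16 other genes of the gp130 and STAT3 pathway that were tested, 1 rose with tau in Ch25h+/+: Ptpn6, a phosphatase best known from blood and microglial cells (log2 fold change 1.04, edgeR adjusted p = 0.00428). Their median was 0.20. Stat3 itself differed by 0.30 (adjusted p = 0.213), the co-receptor Il6st by 0.16 (adjusted p = 0.783) and the feedback inhibitor Socs3 by 0.24 (adjusted p = 0.798) in edgeR's test. The ligands Il6, Il11, Osm and Cntf were too scarce to test, with at most 13 counts in any library.

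Cd44 encodes the receptor for hyaluronan and osteopontin (chr2:102811141-102901665, minus strand). It was at 5.96, 2.95, 2.42 and 1.81 CPM in Ch25h+/+ Tau- and at 5.73, 8.16, 5.95 and 10.5 CPM in Ch25h+/+ Tau+. 1 Ch25h+/+ Tau- library, replicate 1, thus lay within the Tau+ range. The difference of 1.21 ± 0.33 (log2) had an adjusted p of 0.0828 in edgeR's test, and it passed without that library, in DESeq2 and in limma-voom. Ch25h-/- libraries were at 2.18 to 5.24 CPM without tau and at 2.97 to 5.33 CPM with it. All 4 Ch25h-/- Tau+ libraries lay below the Ch25h+/+ Tau+ group, with a difference of -0.83 ± 0.32 (adjusted p = 0.131). Among 4 genes tested for a ligand of CD44, enzymes that make hyaluronan and another hyaluronan receptor, Spp1, which encodes osteopontin, rose with tau in Ch25h+/+ (log2 fold change 1.79, edgeR adjusted p = 0.0144), and the median of the 4 was 0.02.

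S1pr3 encodes a receptor for sphingosine-1-phosphate (chr13:51408639-51422797, plus strand). It was at 12.2, 10.8, 13.2 and 11.3 CPM in Ch25h+/+ Tau- and at 15.2, 12.03, 17.2 and 27.9 CPM in Ch25h+/+ Tau+. The lowest Ch25h+/+ Tau+ library lay within the Ch25h+/+ Tau- range, and the other 3 lay above it. The difference of 0.61 ± 0.18 (log2) had an adjusted p of 0.136 in edgeR's test, and it was the smallest tau difference among the 9 genes. It was 0.32 without replicate 4 of Ch25h+/+ Tau+, and it passed without replicate 2 of that group (edgeR adjusted p = 0.0191) and with no abundance filter beyond 1 count (0.0342). The difference with Ch25h loss in Tau+ was -0.44 ± 0.18 (adjusted p = 0.153), which was -0.16 without that replicate 4 and passed without that replicate 2 (0.0351). Ch25h-/- libraries spanned only 10.8 to 14.4 CPM with and without tau. Of 9 other genes of this lipid pathway 0 passed in Ch25h+/+ in edgeR or DESeq2 and 1 in limma-voom, and 2 had an unadjusted p under 0.05. S1pr3 shares 45 exonic bases with Gm32834 on the other strand, which was at 0.250 to 0.924 CPM.

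Ggta1 and Steap4 encode enzymes. Ggta1 (chr2:35400179-35463231, minus strand) adds alpha-galactose to glycans and belongs to the set of genes that astrocytes raise after neuroinflammation (A1-type). It was at 4.25, 3.83, 3.45 and 3.73 CPM in Ch25h+/+ Tau- and at 5.79, 6.94, 6.46 and 9.94 CPM in Ch25h+/+ Tau+. In Ch25h-/- Tau- it was at 5.42, 3.82, 4.58 and 2.62 CPM and in Ch25h-/- Tau+ at 4.69, 5.85, 3.52 and 4.81 CPM. The Ch25h+/+ groups were apart, and 1 Ch25h-/- Tau+ library reached the lower edge of Ch25h+/+ Tau+. The rise with tau in Ch25h+/+ was 0.93 ± 0.21 (log2, edgeR adjusted p = 0.0278), and it was not called without replicate 4 of Ch25h+/+ Tau+ or without any 1 of the 4 Ch25h+/+ Tau- libraries. The difference with Ch25h loss in Tau+ was -0.63 ± 0.21 (adjusted p = 0.0915 in edgeR). It passed in DESeq2 (adjusted p = 0.0438) and limma-voom (0.0269), where 8.42% and 10.6% of all genes passed.

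Steap4 encodes a metalloreductase of iron and copper (chr5:7960457-7982213, plus strand). It was at 0.370, 0.383, 0.345 and 0.605 CPM in Ch25h+/+ Tau- and at 0.431, 1.18, 0.837 and 1.49 CPM in Ch25h+/+ Tau+. In Ch25h-/- Tau- it was at 0.904, 1.65, 0.301 and 0.558 CPM and in Ch25h-/- Tau+ at 0.469, 0.845, 1.25 and 1.62 CPM. It was the only 1 of the 9 genes tested whose Ch25h-/- Tau+ mean, 1.05 ± 0.499 CPM, was not below the Ch25h+/+ Tau+ mean, 0.985 ± 0.456 CPM. The tau difference in Ch25h+/+ was 1.23 ± 0.50 (log2, adjusted p = 0.395) and that of Ch25h loss in Tau+ was 0.04 ± 0.46 (adjusted p = 0.970). In Tau- mice its difference with Ch25h loss was 0.997, with a 95% interval from -0.008 to 2.002, while the other 8 genes were within 0.35 of 0. Steap4 had 5 to 32 counts per library and overlapped in all 4 comparisons. With the ribosomal RNA class of the library as a term, its difference with Ch25h loss turned to -1.08 in Tau+ and -0.39 in Tau-. Both values rest on replicate 1 of Ch25h-/- Tau+, the 1 Ch25h-/- library not rich in ribosomal RNA. In the Ch25h-/- Tau+ library that is not rich in ribosomal RNA Steap4 was at 0.469 CPM, the lowest of its group.

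**Figure D2:**
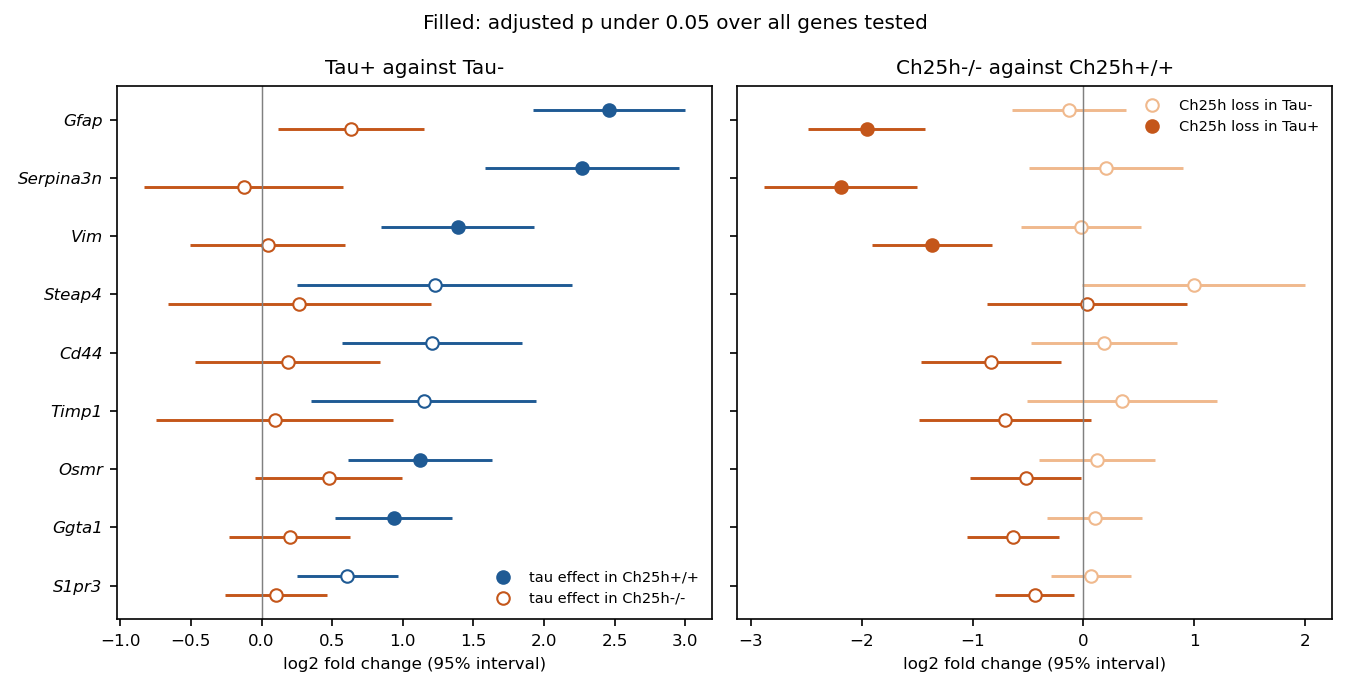
Log2 fold change (horizontal axes) with its 95% interval for the 9 genes tested: Tau+ against Tau- in each Ch25h genotype on the left, Ch25h-/- against Ch25h+/+ in each tau status on the right. Filled points passed an adjusted p of 0.05 over all genes tested, which were 5 genes for tau in Ch25h+/+, 3 for Ch25h loss in Tau+ and 0 in the other 2 comparisons.

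Whether the tau effect itself differed between the Ch25h genotypes was tested as an interaction. All 9 genes had a smaller tau effect without Ch25h, with a median difference of -1.02 (log2) against 0.02 over all genes tested. None passed the adjusted threshold in edgeR's test, where 0.0338% of all genes did, and 5 of the 9 had an unadjusted p under 0.05, as did 4.13% of all genes. The largest were Serpina3n at -2.40 ± 0.50 and Gfap at -1.83 ± 0.37, both with an adjusted p of 0.100, and then Vim at -1.35 ± 0.39 (adjusted p = 0.440). DESeq2 called Gfap and Serpina3n, and limma-voom called 0. Without replicate 1 of Ch25h+/+ Tau+ edgeR called Gfap and Serpina3n, and without replicate 2 of Ch25h-/- Tau+ it called Gfap.

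The fall with Ch25h loss in Tau+ was compared within the library class given by ribosomal RNA. A fit with that class as a term, in which the contrast within Tau+ mice rests on replicate 1 of Ch25h-/- Tau+ alone, gave log2 fold changes of -2.01 for Gfap, -2.38 for Serpina3n and -1.42 for Vim. These 3 values were about as large as without the term, but 0 of 9 genes passed (edgeR adjusted p = 0.306, 0.437 and 0.807 for these 3). Others moved: Osmr went from -0.52 to -1.18, Cd44 from -0.83 to -1.35 and Steap4 from 0.04 to -1.08. In the 9 libraries that are not rich in ribosomal RNA, 1 against 4 in Tau+, the values were -2.01, -2.37 and -1.42 and 0 genes passed. That 1 library had 189 CPM of Gfap, 7.94 of Serpina3n and 37.1 of Vim, below all 4 Ch25h+/+ Tau+ libraries in each. Beyond this library, Ch25h loss and library class cannot be told apart. The tau comparison in Ch25h+/+ is within 1 class, and in the 7 libraries rich in ribosomal RNA the Ch25h-/- tau differences were 0.64 for Gfap, 0.05 for Vim and -0.07 for Serpina3n.

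Levels of the 10 genes were uneven over the Ch25h+/+ Tau+ libraries. Replicate 4 had the highest level in 9 of 10 genes, all but Timp1, and replicate 1 the lowest in 7 of 10. The mean standardized level of the 9 genes tested was 0.40, 0.64, 1.21 and 2.30 in these 4 libraries and between -0.77 and -0.60 in Ch25h+/+ Tau-. In Ch25h-/- Tau+ it was -0.46, 0.18, -0.08 and 0.08, and in Ch25h-/- Tau- between -0.59 and -0.16. So every Ch25h+/+ Tau+ library stood above every library of the other 3 groups. Within Ch25h-/- Tau+, replicate 2 was the highest in 7 of the 10 genes. Relative to the Ch25h+/+ Tau- mean, Gfap spanned 1.77 to 3.24 (log2) over the Ch25h+/+ Tau+ libraries, Serpina3n 1.37 to 3.25 and Vim 0.53 to 2.36. In the Ch25h-/- Tau+ libraries these ranges were 0.01 to 1.13, -0.10 to 0.45 and -0.13 to 0.14.

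**Figure D3:**
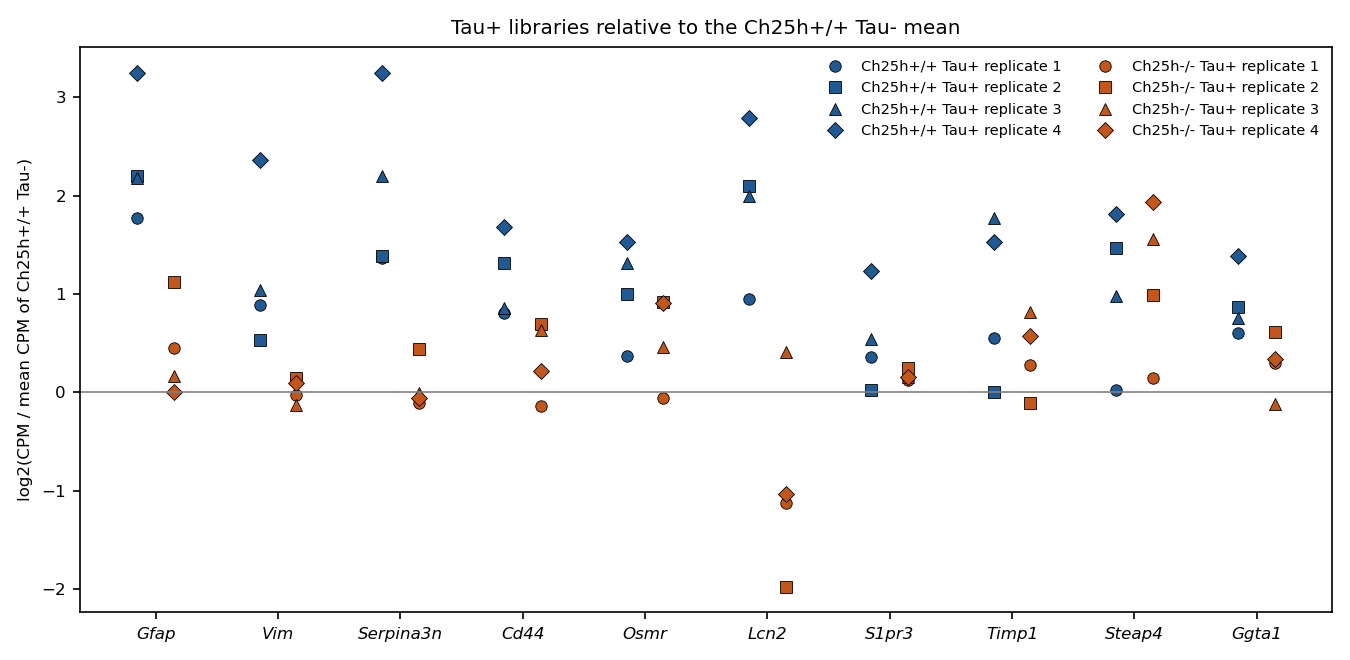
Log2 ratio of each Tau+ library's CPM to the mean CPM of the 4 Ch25h+/+ Tau- libraries (vertical axis, 0 is that mean) for the 10 genes, with symbols for replicates and colours for the Ch25h genotype. In Ch25h+/+ the diamonds of replicate 4 are the highest points of 9 genes, and for Gfap, Serpina3n, Vim, Cd44 and Lcn2 all Ch25h+/+ points lie above all Ch25h-/- points.

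Per kilobase of exon, the genes spanned a wide range of levels in Ch25h+/+ Tau-. Gfap was at 32.8, Vim at 8.0, Serpina3n at 4.14 and S1pr3 at 2.66 CPM per kilobase. Ggta1 followed at 0.810, Cd44 at 0.485, Timp1 at 0.473, Osmr at 0.303, Steap4 at 0.135 and Lcn2 at 0.0975. In Ch25h+/+ Tau+ Gfap was at 181, Vim at 21.0 and Serpina3n at 20.0 CPM per kilobase, and the order was the same except that Lcn2 at 0.418 passed Steap4 at 0.312. Neighbours closer there than their spread over libraries included Vim and Serpina3n, Cd44 at 1.12 and Timp1 at 1.04, and Lcn2 and Steap4 (SD 0.200 and 0.145). The change of order of this last pair thus lies within that spread.

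Other genes of astrocyte reactivity were read from lists, which were also chosen with earlier results of these data known. Each is given with its count and its median, beside 1.47% risen and a median of -0.01 over all genes tested in Ch25h+/+. Of 4 further pan-reactive genes 3 rose with tau in Ch25h+/+ and the median log2 fold change was 1.07: Aspg, an asparaginase, at 1.34, Cxcl10, an interferon-induced chemokine, at 2.87 and Cp, ceruloplasmin, at 0.80. Of 10 other A1-type genes 7 rose and the median was 0.96. They included H2-D1, a class I MHC chain, at 1.07 (edgeR adjusted p = 2.43e-06), Psmb8, an immunoproteasome subunit, at 1.38, and Gbp2, an interferon-induced GTPase, at 1.14. Of 11 genes tested from the set raised after ischaemia (A2-type) 3 rose and the median was 0.42: the transglutaminase Tgm1 at 3.23, Cd14 at 1.31 and Cd109 at 1.17. Many of these genes are also expressed by microglia and vessel cells. The A1-type count was 4 without replicate 4 of Ch25h+/+ Tau+ or replicate 1 of Ch25h+/+ Tau- and 3 without replicate 4 of Ch25h+/+ Tau-. The A2-type count was 1 without this last library, and 0 without replicate 4 of Ch25h+/+ Tau+ or in the 8 libraries alone.

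Of 15 further genes tied to astrocyte reactivity 4 rose with tau in Ch25h+/+ (median 0.34), and the highest was complement C4b at 2.50 (edgeR adjusted p = 2.72e-05), from 27.1 ± 5.41 to 153 ± 50.4 CPM (SD, n = 4). Lgals3, galectin-3, rose by 2.48 and Gbp3 by 1.197. The count was 2 without replicate 4 of Ch25h+/+ Tau+ and without replicate 1 or 4 of Ch25h+/+ Tau-. Of 18 general astrocyte genes, such as the glutamate transporters Slc1a2 and Slc1a3 and the water channel Aqp4, 17 had a higher estimate with tau in Ch25h+/+ and the median was 0.19. In edgeR 0 of the 18 passed, and 7 had an unadjusted p under 0.05, against 9.38% of all genes. The difference between this list and the reactive lists was not tested. DESeq2 called 2 of the 18 and limma-voom 3, and edgeR called 2 without replicate 1 of Ch25h+/+ Tau+. Slc1a2 was at 2191 CPM in Ch25h+/+ Tau- and 2584 CPM in Ch25h+/+ Tau+. Without Ch25h 0 genes of these lists passed with tau in edgeR, DESeq2 or limma-voom, where 0.0395% of all genes passed in edgeR. An unadjusted edgeR p under 0.05 was found for 1 A1-type and 1 A2-type gene and for 3.68% of all genes. The medians there were 0.19 for the pan-reactive, 0.21 for the A1-type, -0.01 for the A2-type and 0.00 for the general astrocyte genes, beside 0.19 for the 9 genes tested of the 10.

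**Figure D4:**
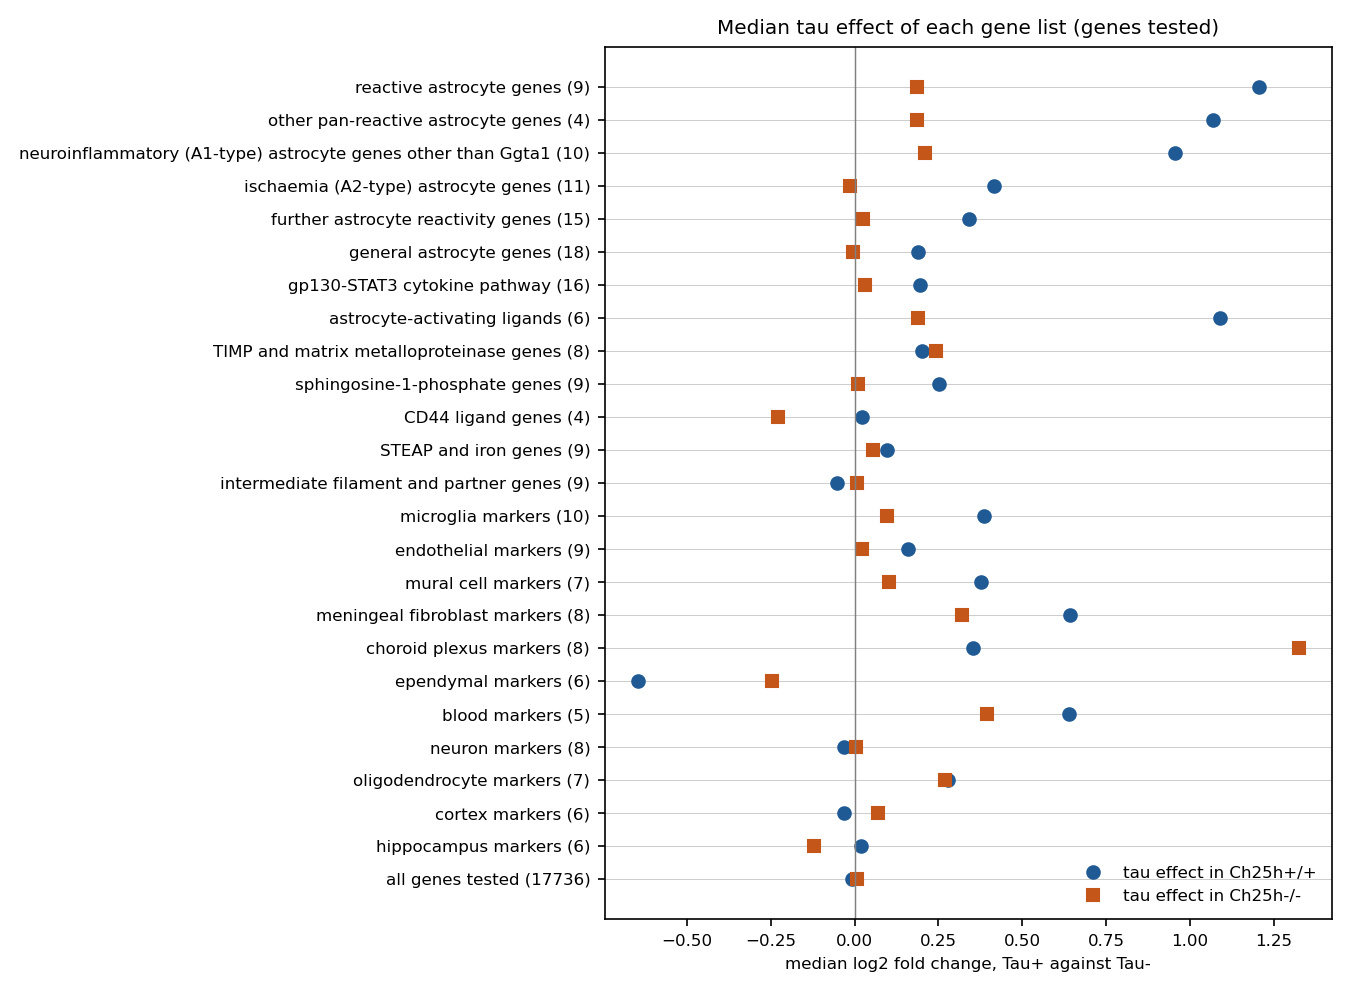
Median log2 fold change of Tau+ against Tau- (horizontal axis) of each gene list, with the number of genes tested in brackets, in Ch25h+/+ (circles) and Ch25h-/- mice (squares). The median of the reactive astrocyte genes was 1.21 in Ch25h+/+ and 0.19 in Ch25h-/-, and that of the general astrocyte genes 0.19 and 0.00.

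With Ch25h loss in Tau+ mice, 2 of the 4 pan-reactive genes, 5 of the 10 A1-type, 3 of the 11 A2-type and 3 of the 15 further genes fell, and 0 rose. Of all genes tested 2.4% fell and 3.55% changed in either direction. The latter share ran from 0.602% to 9.42% with 1 library left out. C4b fell by 1.94 on the log2 scale (edgeR adjusted p = 0.000482) and H2-D1 by 1.18 (adjusted p = 2.61e-06). Of the 18 general astrocyte genes 3 fell, named here after their values were seen: Gpr37l1 by 0.51, Mlc1 by 0.54 and Aldoc by 0.33. Without replicate 4 of Ch25h+/+ Tau+ the pan-reactive and A2-type counts were 0, and without replicate 3 or 4 of Ch25h-/- Tau+ the pan-reactive count was 0 and the A1-type count 3. With library class as a term this contrast rests on replicate 1 of Ch25h-/- Tau+ alone. It therefore cannot show whether these falls are apart from library class.

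Markers of other cells moved along with the 10 genes in part. Of 10 microglia markers 4 rose with tau in Ch25h+/+, among them Trem2 by 1.21 and Csf1r by 0.50 on the log2 scale, and 5 fell with Ch25h loss in Tau+ (2 without replicate 4 of Ch25h+/+ Tau+ or replicate 3 of Ch25h-/- Tau+). Their summed level in Ch25h+/+ libraries was 328 to 355 CPM without tau and 427 to 546 CPM with it. In Ch25h-/- libraries it was 313 to 353 CPM without tau and 322 to 393 CPM with it. Signals that act on astrocytes moved too. Of 6 tested, 4 rose with tau in Ch25h+/+ (median 1.09) and 4 fell with Ch25h loss in Tau+. The 4 that fell were the complement genes C1qa, C1qb and C1qc and Tgfb1. Over all genes tested 1.47% rose and 2.4% fell in these comparisons. Library class nearly coincides with Ch25h loss, so the falls of these genes and of the microglia markers cannot be told apart from it. C1qa went from 45.9 ± 5.52 to 117 ± 22.98 CPM with tau in Ch25h+/+ (SD, n = 4, log2 fold change 1.35, edgeR adjusted p = 2.72e-05) and was at 40.2 ± 7.74 CPM in Ch25h-/- Tau+.

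Vessel and meningeal cells also express Vim, Cd44, Lcn2, Timp1 and S1pr3. Summed mural cell markers were 162 to 212 CPM in Ch25h+/+ Tau- and 240 to 265 CPM in Ch25h+/+ Tau+, where 1 of 7 rose (Vtn, by 0.51 on the log2 scale, which fell by 0.45 with Ch25h loss in Tau+). Endothelial markers, in the same order, were at 244 to 275 and 274 to 338 CPM (0 of 9 passed, 2 at an unadjusted p under 0.05) and fibroblast markers at 99.1 to 161 and 150 to 221 CPM (0 of 8 passed, 1 in DESeq2 and in limma-voom, 3 at an unadjusted p under 0.05, median 0.64). The 3 sums were 202 to 233, 249.4 to 317 and 153 to 173 CPM where Ch25h was absent and tau present. All 7 oligodendrocyte markers had a higher estimate with tau in both Ch25h genotypes (medians 0.28 in Ch25h+/+ and 0.27 in Ch25h-/-) and a lower one with Ch25h loss in both tau states (medians -0.35 in Tau+ and -0.28 in Tau-). In edgeR and DESeq2 0 of them passed, with 1, 0, 4 and 2 at an unadjusted edgeR p under 0.05 in that order, where 9.38%, 3.68%, 23.9% and 20.9% of all genes were. In limma-voom 4 passed with Ch25h loss in Tau+, as did 10.6% of all genes, and 0 in the others. Choroid plexus markers varied from 16.9 to 2808 CPM over the libraries, and the calls of the 10 genes were 5 and 3 with that level as a term, as without it. No defining marker of these lists was at 0 in all libraries, and their part in the results was not tested.

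Genes whose levels ran most like the mean of the 9 genes tested over the 16 libraries, among 14080 candidates, included C3ar1, the receptor of complement C3a (Pearson r = 0.951), Lyz2, a lysozyme (0.945), Mpeg1 (0.944) and Tmem176a (0.939). The 9 genes themselves had r from 0.531 for Steap4 to 0.929 for Gfap, although they make up that mean. The named genes thus ran closer to it than any of the 9, and the cell type behind the shared pattern was not tested. The 16 points share 4 group means and the libraries, so the values are a description with no p. Lyz2 was at 5.70 ± 1.95 CPM in Ch25h+/+ Tau-, 44.8 ± 28.5 in Ch25h+/+ Tau+, 6.32 ± 3.01 in Ch25h-/- Tau- and 8.42 ± 2.49 in Ch25h-/- Tau+ (SD, n = 4 each). C3ar1 was at 1.76, 6.38, 1.76 and 2.62 CPM in the same order. They were chosen for this likeness, so the order of their group means is not a separate result.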

How the data were processed

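Bulk RNA-seq was done on 16 libraries of 4 genotypes. A column kit for total RNA and a SMARTer kit for mRNA libraries were used, per the labels' protocols. Per the submitters' processing notes, STAR 2.7 and the builds GRCm38 and mm10 were used. The counting program, the annotation and the use of strand are not given in the sources used here. The table the authors deposited holds raw counts per gene and library, with no normalization, and was checked to hold whole numbers. It has 105 repeated symbols, none among the 10 genes.

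Genes were filtered with filterByExpr (minimum count 10), which left 17736 of 54532 entries and 99.9% of the counts of each library. In R 4.3.3, edgeR 4.0.16 was fitted with TMM scaling and 1 mean per group over all 16 libraries (quasi-likelihood F test, two-sided, Benjamini-Hochberg, threshold 0.05), and was tested on simulated data. The SE is the fold change over the root of F, and 95% intervals are 1.96 SE. That multiple is the normal one, so the intervals are somewhat narrower than the F test implies. For Osmr with Ch25h loss in Tau+ the interval was -1.02 to -0.02, beside an unadjusted p of 0.0556 in edgeR's test. Lcn2 was compared by exact permutation of 4 against 4 libraries. Likeness used log2(CPM + 0.5) and genes whose mean log2 CPM was 1 or more. Positions come from GENCODE M21 (GRCm38), which held 98.7% of the symbols. Libraries with over 1000 CPM of CT010467.1 on total counts were called rich in ribosomal RNA. Alternatives were other scaling and filters (1 count in any library, a mean of 50 counts), DESeq2 1.42.0, limma-voom (limma 3.58.1), the 8 libraries compared, covariates, GC-corrected offsets and leaving out each library. The 10 genes and the lists were chosen with earlier results of these data known. All 10 are described, and of each other list the 3 genes with the smallest p among those that passed for tau in Ch25h+/+. Other list members (Slc1a2, Slc1a3 and Aqp4 as examples, and Stat3, Il6st, Socs3, Tgfb1 and the general astrocyte genes that fell) were named after their values were seen. Lcn2 did not pass the abundance filter over the 16 libraries. Intervals and floors cover counting error or the spread between these libraries only. 1 gene that the naming rule and the list of most alike genes name is not reported here.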

Additional observations from a re-analysis of the deposited data

Results flagged for a closer look

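In 3 of 40 sets of 4 libraries (10 genes in 4 groups), 1 library stood apart from the other 3 by Dixon's criterion, and chance gives about 1 in 20. Vim was at 195 CPM in replicate 4 of Ch25h+/+ Tau+, where the other 3 libraries were at 54.7 to 77.9 CPM. Serpina3n was at 11.6 CPM in replicate 2 of Ch25h-/- Tau+, beside 7.94 to 8.52 CPM. Steap4 was at 0.605 CPM in replicate 4 of Ch25h+/+ Tau-, beside 0.345 to 0.383 CPM.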

How the results depend on the processing

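Of the 10 genes, 5 passed for tau in Ch25h+/+, 3 for Ch25h loss in Tau+ and 0 for the other 2 comparisons and the interaction. For tau in Ch25h+/+ the count was 8 with no abundance filter beyond 1 count, 3 in the 8 libraries alone and 3 to 6 when 1 library was left out. It was 3 without replicate 4 of Ch25h+/+ Tau+ and without replicate 1, 2 or 3 of Ch25h+/+ Tau-. Gfap and Serpina3n passed in each of these settings. For Ch25h loss in Tau+ the count was 0 with library class as a covariate, 0 in the 9 libraries that are not rich in ribosomal RNA (a setting chosen after seeing the data) and 3 to 4 when 1 library was left out. Some of these counts include Lcn2, which then passed the filter through the group where it is high, and over the 9 genes tested in all libraries they were 3 to 6 and 2 to 4. For the interaction it was 3 with no filter, 2 with DESeq2 and 0 to 2 when 1 library was left out. It was 0 to 0 for tau in Ch25h-/- and for Ch25h loss in Tau-. Over all genes, 277 passed for tau in Ch25h+/+ (424 in DESeq2, 498 in limma-voom, 160 to 299 with 1 library left out) and 629 for Ch25h loss in Tau+ (1494, 1883 and 108 to 1691, with 106 in the 8 libraries, 198 with GC-corrected offsets, 10 with library class and 3 in the 9 libraries). For Ch25h loss in Tau- 182 passed (1124 in DESeq2, 1388 in limma-voom, 1229 in the 8 libraries, 15 with GC-corrected offsets, 0 with library class and 3 to 1306 with 1 library left out).

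Signs changed in 14 of 45 results of single genes, and 0 of these passed the threshold in any setting. With Ch25h loss in Tau+, Steap4 was at -0.071 in limma-voom, -0.075 with GC-corrected offsets, -1.08 with library class, -0.094 with the choroid plexus term, -1.08 in the 9 libraries and -0.27 to 0.29 with 1 library left out. With Ch25h loss in Tau-, library class gave -0.042 for Serpina3n, -0.49 for Cd44, -0.71 for Osmr and -0.39 for Steap4. In Tau- all 4 Ch25h-/- libraries and 0 Ch25h+/+ libraries are rich in ribosomal RNA, so this term cannot be estimated within Tau-. Its size comes from replicate 1 of Ch25h-/- Tau+ against the rest of its group. In the same comparison Gfap was at 0.0074 with GC-corrected offsets. Vim was at 0.00026 with a mean of 50 counts and 0.0078 with the choroid plexus term. With 1 library left out these ranges were -0.13 to 0.10 for Vim, -0.021 to 0.65 for Cd44, -0.046 to 0.23 for Osmr, -0.052 to 0.27 for Ggta1 and -0.016 to 0.13 for S1pr3. For tau in Ch25h-/- they were -0.030 to 0.15 for Vim, -0.31 to 0.045 for Serpina3n, -0.0082 to 0.39 for Cd44, -0.065 to 0.21 for Timp1 and -0.029 to 0.79 for Steap4. The cause of these changes was not tested. No paired analysis was possible because the labels give no replicate numbers, and those used here follow the order of the records. With no filter beyond 1 count, Lcn2 differed by 2.10 with tau in Ch25h+/+ and by -2.74 with Ch25h loss in Tau+ (log2, edgeR adjusted p = 0.0205 and 0.00281). With 1 library left out it passed the usual filter only through Ch25h+/+ Tau+, where it is high, and its adjusted p of 0.0226 to 0.146 and 0.00998 to 0.0579 supports nothing further. It was 0.0733 for tau in the 8 libraries and 0.734 for Ch25h loss in the 9 libraries. Lcn2, Timp1 and Steap4 had at most 38 counts in a library, which limits their precision.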
